A study of Mus musculus with 9 samples.

Results

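The genes described here are 10 members of the transforming growth factor beta (TGF-beta) pathway, taken by symbol from a list: the ligands Tgfb1, Tgfb2 and Tgfb3, the ligand-handling proteins Ltbp1 and Thbs1, the receptors Tgfbr1 and Tgfbr2, and the signal transducers Smad2, Smad3 and Smad7. They are 10 of the 24421 gene symbols in the count tables. Whole-liver RNA of C57BL/6J mice aged 5 weeks gave 9 sequencing libraries, of which 5 came from control littermates labelled wildtype (WT 1 to 5) and 4 from littermates with O-GlcNAc transferase (OGT) deleted (OGT-deficient 1 to 4). OGT adds single N-acetylglucosamine sugars to proteins inside the cell. All mice had been fasted for 6 h. The sources used here do not give the allele, the cells in which OGT was removed, or any transgene that the controls carry. The design text gives as many mice as libraries, so each library was taken as 1 mouse.

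TGF-beta ligands are made as precursors, cleaved, and held inactive by their own propeptide, which latent TGF-beta binding proteins such as LTBP1 tie to the matrix. Integrins and thrombospondin-1, the product of Thbs1, can free the ligand. The free ligand brings together the receptor kinases TGFBR2 and TGFBR1, which phosphorylate SMAD2 and SMAD3, and these enter the nucleus with SMAD4. SMAD7 is a target gene of the pathway and blocks the receptors. In liver the pathway is best known for driving stellate cells to make scar matrix, and it also restrains hepatocyte growth.

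Between 32337861 and 54130901 reads were assigned to genes per library, and 3 counts corresponded to 0.0554 to 0.0928 CPM (counts scaled to a common library size). Ogt was at 51.1 to 73.1 CPM in the WT and 14.3 to 20.6 CPM in the OGT-deficient libraries, without overlap between the groups. Hepatocyte markers summed to between 105254 and 122608 CPM in WT and between 47339 and 61602 CPM in OGT-deficient liver, with Ass1 listed at only 0.144 CPM in WT. The design text names both sexes, but the Y-linked gene Ddx3y was at 55.4 CPM or more in all 9 libraries and Xist at no more than 1.13 CPM. The trimmed mean of M-values (TMM) factors, which scale the library sizes, ranged from 0.880 to 0.915 for WT libraries, against 1.09 to 1.22 for OGT-deficient ones. Several library measures also separated the groups without overlap. Genes with a read numbered 15349 to 15987 for WT libraries, against 16411 to 16855 for OGT-deficient ones. The share of unique alignments that the counting matched to no feature was 8.95 to 9.72% against 9.96 to 10.7%. The counts do not say whether these alignments lay in introns or between genes. Alignments that were not unique numbered 16167401 to 35276937 against 7997176 to 9317390. Their part in the results was not tested. All CPM given are TMM-scaled unless stated, except the CPM of 3 counts above, which use the library totals alone. A change is called by edgeR's quasi-likelihood test at an adjusted p under 0.05 over all 14104 tested genes.

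All 10 members were tested. The 3 ligands, Ltbp1, Thbs1 and Smad3 rose, Smad2 and Smad7 fell with TMM factors (neither passed with plain library totals), and the receptors Tgfbr1 and Tgfbr2 did not pass the test. The 8 calls among 10 members stand beside a background of 61.1% of all tested genes called, 31.6% higher and 29.4% lower. The OGT-deficient values lay wholly above the WT values for 6 members and wholly below for Smad2, where 51.3% of all tested genes did not overlap, 26.2% above and 25.0% below. The median log2 fold change of the members was 0.54, and that of all tested genes 0.02. Of the members, 4 (Thbs1, Tgfb3, Tgfb2 and Ltbp1) rose at least 2-fold, as did 14.8% of all tested genes.

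**Figure D1:**
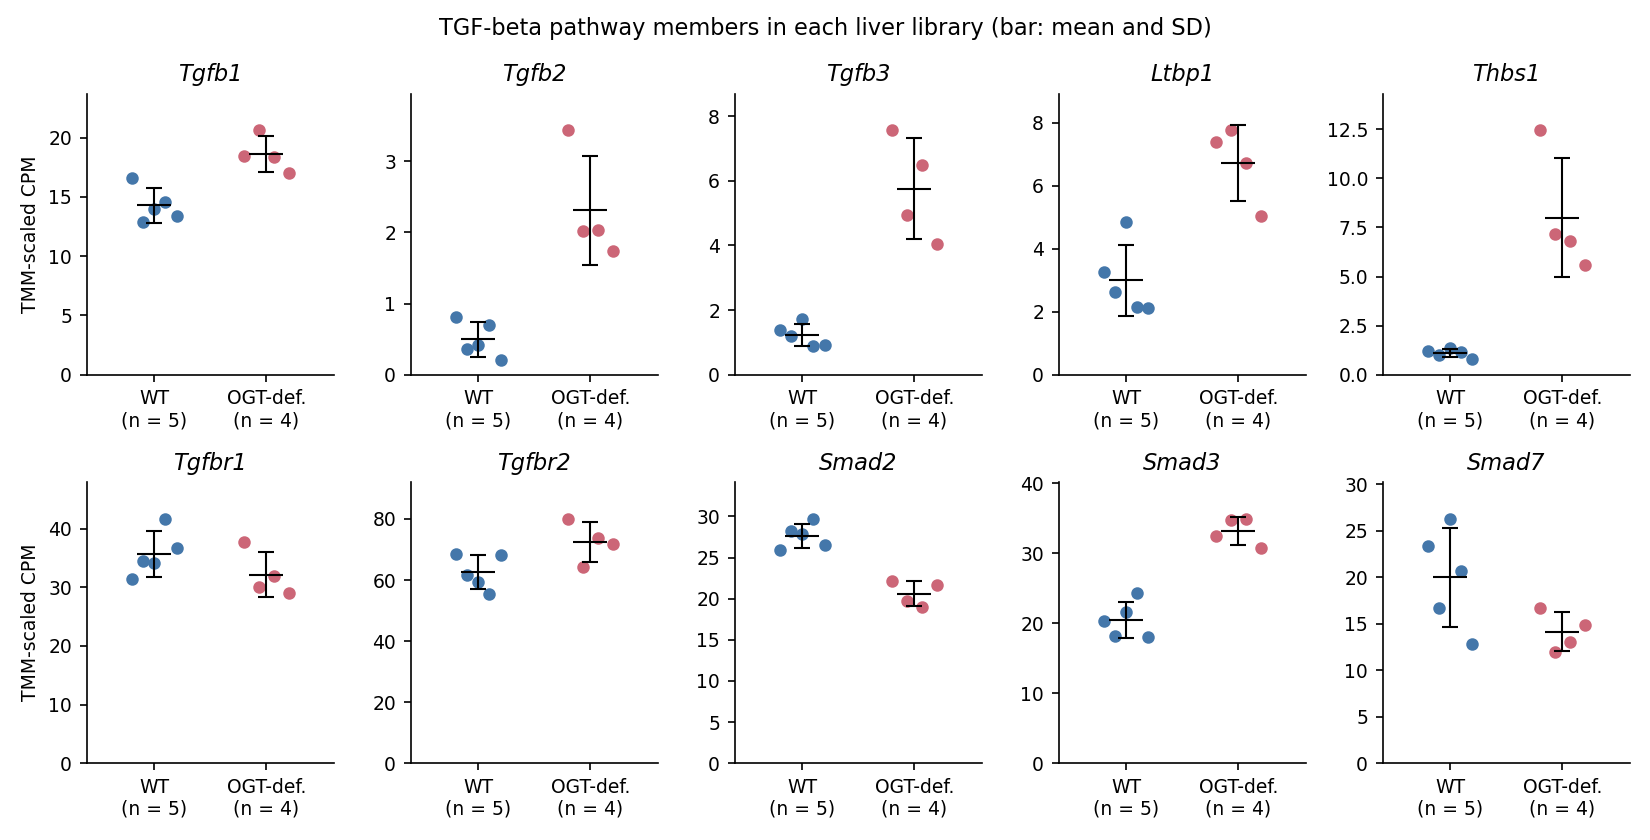
TMM-scaled CPM (y axis, from 0, a separate scale for each gene) of the 10 members in each of 5 WT (blue) and 4 OGT-deficient (red) libraries, with the group mean and SD as bars. The groups do not overlap for Tgfb1, Tgfb2, Tgfb3, Ltbp1, Thbs1, Smad2 and Smad3, and they overlap for Tgfbr1, Tgfbr2 and Smad7.

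Tgfb1, the ligand made by many cell types including macrophages and platelets (chromosome 7, 25687002 to 25705077, plus strand, GRCm38), was the most abundant ligand transcript. It was at 16.6, 12.9, 14.0, 14.6 and 13.4 CPM across WT 1 to 5, against 18.5, 20.6, 18.3 and 17.0 CPM across OGT-deficient 1 to 4. All OGT-deficient libraries lay above all WT libraries, with WT 1 and OGT-deficient 4 nearly level. The WT mean was 14.3 ± 1.45 CPM (SD, n = 5) and the OGT-deficient mean 18.6 ± 1.502 CPM (SD, n = 4). The rise was 1.30-fold, or 0.38 on the log2 scale (SE 0.10, edgeR adjusted p = 0.00405).

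Tgfb2 and Tgfb3, better known for their roles in development, were scarce in WT liver and rose far more. Tgfb2 (chromosome 1, 186622792 to 186705989, minus strand) measured 0.812, 0.357, 0.421, 0.694 and 0.209 CPM in WT 1 to 5, from 38, 17, 15, 20 and 7 counts. In OGT-deficient 1 to 4 it measured 3.44, 2.02, 2.04 and 1.74 CPM, from 163, 80, 107 and 71 counts. OGT-deficient 1 stood highest, and the lowest OGT-deficient library was above the highest WT library. Its log2 fold change was 2.20 (SE 0.35, adjusted p = 0.000143), or 4.60-fold. Tgfb3 (chromosome 12, 86056745 to 86079041, minus strand) was at 1.37, 1.20, 1.71, 0.902 and 0.924 CPM across WT 1 to 5, against 7.57, 4.94, 6.48 and 4.04 CPM across OGT-deficient 1 to 4. OGT-deficient 1 was again the highest and OGT-deficient 4 the lowest of its group, with no overlap with WT. Its log2 fold change was 2.23 (SE 0.23, adjusted p = 5.10e-06), or 4.68-fold.

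The make-up of the ligand transcripts therefore differed between the groups. Per kilobase of exon, Tgfb1 held 85.8, 86.0, 82.8, 88.2 and 89.5% of the summed level of the 3 ligands across WT 1 to 5, against 56.4, 69.4, 61.6 and 69.3% across OGT-deficient 1 to 4. The share of Tgfb3 was 10.98 ± 2.70% (SD, n = 5) in WT and 29.0 ± 5.15% (SD, n = 4) in OGT-deficient liver. The share of Tgfb2 was 2.55 ± 1.07% and 6.79 ± 1.57%. None of these shares overlapped between the groups, and Tgfb1 remained the largest share in all 9 libraries. The shares depend on the length used: with the longest transcript of each gene Tgfb1 held 92.4 ± 1.54% in WT, against 77.3 ± 4.88% with OGT deleted, Tgfb3 held 6.004 ± 1.56% against 17.97 ± 3.84%, and Tgfb2 held 1.58 ± 0.657% against 4.76 ± 1.27%, again without overlap. The log2 ratio of Tgfb3 to Tgfb1, on CPM plus 0.1, was -3.48 ± 0.36 in WT and -1.71 ± 0.39 in OGT-deficient liver. The ratio of Tgfb2 to Tgfb1 was -4.69 ± 0.52 and -3.003 ± 0.41. The difference between the groups was smaller with a pseudocount of 1 CPM, 1.23 in place of 1.76 for Tgfb3 and 0.77 in place of 1.68 for Tgfb2, and the groups stayed apart.

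**Figure D2:**
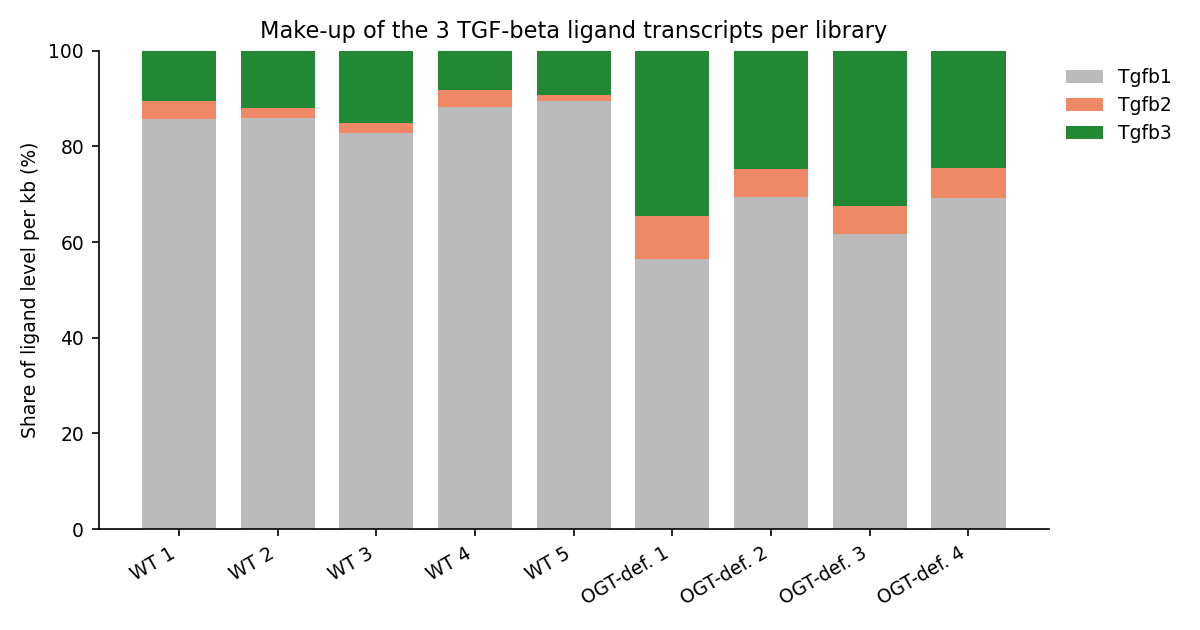
Share in percent of the summed level per kilobase of exon held by Tgfb1 (grey), Tgfb2 (orange) and Tgfb3 (green), stacked to 100% in each of the 9 libraries. The Tgfb1 share is 82.8% or more in every WT library and 69.4% or less in every OGT-deficient library.

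The stretch before the start site was read for the members with a RefSeq entry (GRCm38.p6), 6 of the 10: Tgfb1, Tgfb2, Tgfbr1, Tgfbr2, Smad3 and Ltbp1. The 250 bases before the start are shown for 3 members that rose, to set the weakly raised ligand beside the transducer and the matrix anchor. Capitals mark GGGCGG, the GC box that SP1 can bind, and CAGAC, the minimal SMAD-binding element, each on either strand. The windows are chr7:25686752-25687001 (plus strand) for Tgfb1, chr9:63757995-63758244 (minus strand) for Smad3 and chr17:75005279-75005528 (plus strand) for Ltbp1, each written 5′ to 3′ along the gene.
Tgfb1: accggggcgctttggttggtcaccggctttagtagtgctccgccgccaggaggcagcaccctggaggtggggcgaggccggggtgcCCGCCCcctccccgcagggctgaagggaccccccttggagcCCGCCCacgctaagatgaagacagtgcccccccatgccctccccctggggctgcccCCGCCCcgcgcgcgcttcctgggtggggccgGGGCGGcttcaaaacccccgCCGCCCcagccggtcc
Smad3: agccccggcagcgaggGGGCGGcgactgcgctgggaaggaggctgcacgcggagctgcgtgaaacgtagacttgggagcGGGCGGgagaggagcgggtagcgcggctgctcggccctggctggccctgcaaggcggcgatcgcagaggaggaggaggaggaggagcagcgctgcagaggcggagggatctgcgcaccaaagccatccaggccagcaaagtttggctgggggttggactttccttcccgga
Ltbp1: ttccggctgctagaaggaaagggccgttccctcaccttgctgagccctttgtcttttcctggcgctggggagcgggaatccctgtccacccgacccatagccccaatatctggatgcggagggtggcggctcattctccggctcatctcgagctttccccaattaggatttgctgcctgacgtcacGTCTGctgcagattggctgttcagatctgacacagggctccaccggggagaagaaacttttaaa

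The Tgfb1 window held 5 GC boxes and the windows of Smad3 and Tgfbr1 held 2 each. At least 1 GC box was present in 32.7% of the 32851 RefSeq windows of the same length. CAGAC was found once in the Ltbp1 window, 64 bases before the start, once in that of Tgfbr2 and at 2 places in that of Tgfb2, and at least once in 42.2% of all windows. These are the first listed windows. Ltbp1 and Tgfbr1 each have another listed window, with CAGAC at 2 places for Ltbp1 and 1 place for Tgfbr1. The Tgfb2 window lies wholly upstream of the annotated Tgfb2 gene. Of its 250 bases, 167 lie in GENCODE exons, which are therefore not exons of Tgfb2 itself. The AP-1 element TGANTCA (6.75% of all windows) and the TEAD element GGAATG (12.6%) were searched on both strands and had no match in the first listed window of these 6 genes. No motif searched overlapped another in the windows shown, and a match is a description of letters only.

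Ltbp1 and Thbs1, whose products store and free the ligand, both rose. Ltbp1 (chromosome 17, 75005568 to 75392512, plus strand) was at 3.25, 2.63, 4.85, 2.15 and 2.12 CPM across WT 1 to 5, against 7.38, 7.76, 6.71 and 5.04 CPM across OGT-deficient 1 to 4. WT 3 stood highest among the controls and OGT-deficient 4 lowest in its group, and these libraries nearly met. The log2 fold change was 1.16 (SE 0.23, adjusted p = 0.000895), or 2.23-fold. Thbs1 (chromosome 2, 118111876 to 118127133, plus strand) was at 1.22, 1.01, 1.35, 1.14 and 0.805 CPM across WT 1 to 5, against 12.5, 7.16, 6.82 and 5.58 CPM across OGT-deficient 1 to 4. OGT-deficient 1 stood well above the other 3, and all 4 were several-fold above every WT library. Its log2 fold change of 2.85 (SE 0.24, adjusted p = 9.59e-07) was the largest among the 10 members, and 2.54 without OGT-deficient 1.

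Of 20 other genes of ligand storage and activation, all tested, 14 rose and 1 fell, and the list median was 0.78 on the log2 scale. Fbn2 and Fbn1, the fibrillins to which latent complexes anchor, rose by 5.51 (SE 0.43; 6.13 without WT 1) and 2.38 (SE 0.27) on the log2 scale. Fbn2 was near the floor in WT, at 0.110 ± 0.0869 CPM (0.0298 to 0.256), against 5.48 ± 2.23 CPM in OGT-deficient liver. The size of its fold change is therefore uncertain. Thbs2, a relative of Thbs1, went from 2.48 ± 1.02 to 10.8 ± 1.57 CPM (2.104 on the log2 scale). Plg, the precursor of the protease plasmin and mainly a hepatocyte product, was the gene that fell, by 1.13 on the log2 scale. Other genes covered 11.3% of its exonic bases. The activating integrin subunits Itgav and Itgb8, chosen after their values were seen, rose by 0.44 and 3.59 on the log2 scale. Itgb8 stood at only 0.108 ± 0.0741 CPM in WT, against 1.25 ± 0.360 CPM in OGT-deficient liver.

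The receptors differed little between the groups. Tgfbr1, the type I kinase (chromosome 4, 47353222 to 47414931, plus strand), was at 31.4, 34.5, 34.1, 41.7 and 36.7 CPM across WT 1 to 5, against 37.7, 30.1, 32.0 and 29.0 CPM across OGT-deficient 1 to 4. The groups overlapped, with WT 4 and OGT-deficient 1 highest. The log2 fold change was -0.15 (SE 0.10, adjusted p = 0.230). Tgfbr2, the type II kinase that binds ligand first (chromosome 9, 116084293 to 116175360, minus strand), was at 68.5, 61.8, 59.3, 55.4 and 68.1 CPM across WT 1 to 5, against 80.1, 64.2, 73.9 and 71.7 CPM across OGT-deficient 1 to 4. OGT-deficient 2 lay within the WT range and the other 3 above it. The log2 fold change of 0.21 (SE 0.09, adjusted p = 0.0576) missed the threshold narrowly, and 6 of 17 alternative fits called it higher, with adjusted p from 0.000505 to 0.207 over the 17. The log2 ratio of Tgfbr1 to Tgfbr2 overlapped between the groups, at -0.81 ± 0.26 in WT and -1.17 ± 0.10 in OGT-deficient liver.

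Of 15 other receptors and co-receptors 12 were tested, with 3 higher, 3 lower and a list median of -0.15 on the log2 scale. Acvrl1, a type I receptor of endothelium, rose by 0.73 (SE 0.14) and Bambi, a decoy receptor without kinase activity, by 0.85 (SE 0.24) on the log2 scale. The groups overlapped for Bambi, with the lowest OGT-deficient library at 3.73 CPM and WT at 2.84 to 4.81 CPM. Nrp1 fell by 0.50 and the activin receptor Acvr2a by 0.32 with TMM factors, and neither passed with library totals (-0.17 and 0.016). The groups also overlapped for Nrp1, with OGT-deficient 2 at 119.9 CPM and WT at 103.0 to 149.0 CPM. The co-receptors Tgfbr3 (log2 fold change -0.12, adjusted p = 0.408) and Eng (-0.27, adjusted p = 0.0788), named after their values were seen, did not pass the test, although Eng was called lower without OGT-deficient 2 (-0.40, adjusted p = 0.0141).

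The 2 receptor-activated SMADs moved in opposite directions with TMM factors, while with library totals Smad3 rose and Smad2 did not pass. Smad3 (chromosome 9, 63646767 to 63757994, minus strand) was at 20.3, 18.2, 21.6, 24.3 and 17.97 CPM across WT 1 to 5, against 32.4, 34.7, 34.9 and 30.8 CPM across OGT-deficient 1 to 4. Every OGT-deficient library was above every WT library. The log2 fold change was 0.70 (SE 0.10, adjusted p = 5.14e-05), or 1.62-fold. Smad2 (chromosome 18, 76241580 to 76310963, plus strand) was at 25.9, 28.2, 27.8, 29.7 and 26.6 CPM across WT 1 to 5, against 22.1, 19.7, 19.0 and 21.6 CPM across OGT-deficient 1 to 4. Every OGT-deficient library was below every WT library, at -0.42 on the log2 scale (SE 0.08, adjusted p = 0.000531). The fall of Smad2 depended on the scaling: with library totals in place of TMM factors the log2 fold change was -0.081 (adjusted p = 0.416). Relative to the median of all tested genes it was -0.45 with TMM factors and -0.44 with library totals.

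The ratio of Smad2 to Smad3 within a library does not depend on the scaling, apart from the small pseudocount. Its log2 value was 0.35, 0.63, 0.36, 0.29 and 0.56 across WT 1 to 5, against -0.55, -0.81, -0.88 and -0.51 across OGT-deficient 1 to 4. The groups were far apart relative to their spread, with means of 0.44 ± 0.15 (SD, n = 5) and -0.69 ± 0.19 (SD, n = 4), a difference of -1.13. Because the 2 genes differ in length, the sign of a CPM ratio does not say which transcript is the more abundant. Per kilobase of exon Smad3 stood at 3.69 ± 0.470 CPM and Smad2 at 3.15 ± 0.168 CPM in WT, with overlapping ranges, and at 5.99 ± 0.358 and 2.35 ± 0.172 CPM in OGT-deficient liver.

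Smad7, the inhibitory SMAD that the pathway itself induces (chromosome 18, 75367529 to 75395935, plus strand), was at 23.4, 16.7, 26.3, 20.6 and 12.9 CPM across WT 1 to 5, against 16.7, 11.996, 13.1 and 14.9 CPM across OGT-deficient 1 to 4. The groups overlapped: WT 5 lay among the OGT-deficient libraries and WT 2 level with OGT-deficient 1. The log2 fold change was -0.50 (SE 0.18, adjusted p = 0.0302). The call was lost without WT 1 (adjusted p = 0.0656), WT 3 (0.0780), WT 4 (0.0506), OGT-deficient 2 (0.0765) or OGT-deficient 3 (0.0823). It was also lost with upper-quartile factors (0.0942) and with library totals (0.494), and the log2 fold change was negative in all 17 alternative fits. Relative to Smad3, Smad7 was lower in every OGT-deficient library than in any WT library, with log2 ratios of -0.07 ± 0.31 in WT and -1.23 ± 0.28 in OGT-deficient liver.

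**Figure D3:**
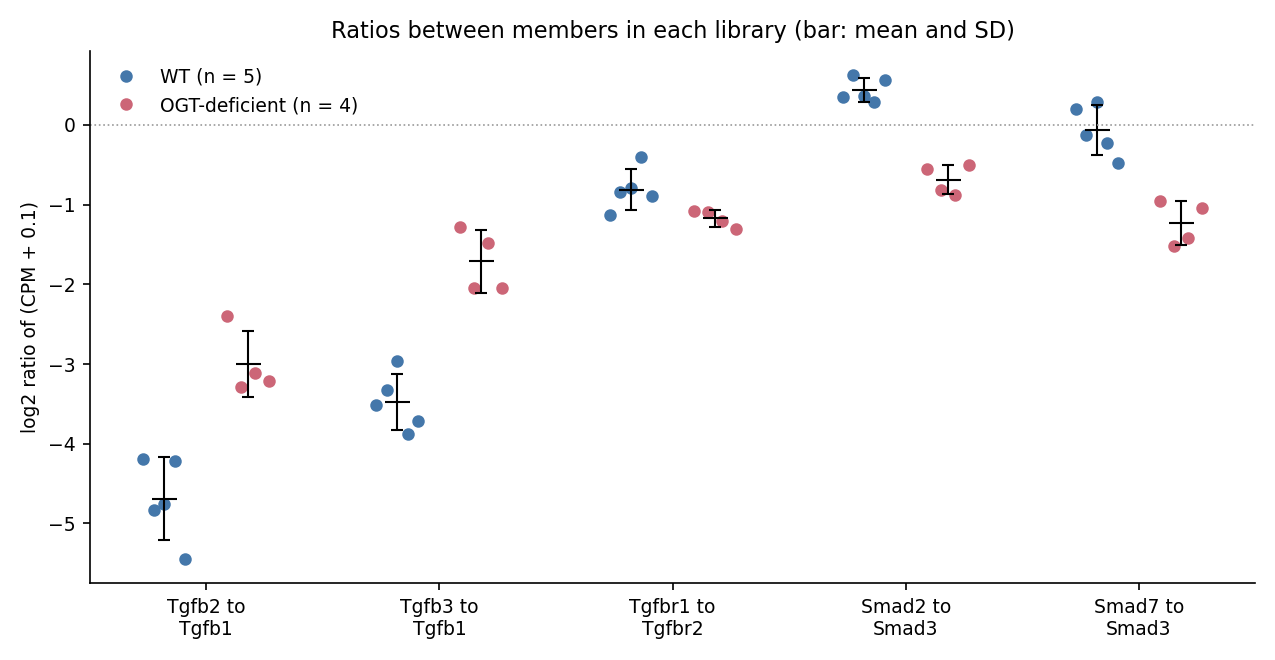
Log2 ratios of (CPM + 0.1) for 5 pairs of members in each WT (blue) and OGT-deficient (red) library, with group mean and SD. The groups are apart for the ratios of Tgfb2 and Tgfb3 to Tgfb1 and of Smad2 and Smad7 to Smad3, and they overlap for Tgfbr1 to Tgfbr2.

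Of 15 other SMADs and SMAD partners 14 were tested, with 4 higher, 5 lower and a list median of -0.09 on the log2 scale. Smad4, the common partner of all signalling SMADs, averaged 42.6 ± 3.55 CPM in WT, against 30.6 ± 1.68 CPM in the OGT-deficient group. It fell by 0.48 on the log2 scale (SE 0.08, adjusted p = 0.000270) with TMM factors and was at -0.14 (adjusted p = 0.132) with library totals. Smad5 and Smad9, transducers of bone morphogenetic protein (BMP) signals, fell by 0.27 and 0.69 with TMM factors, while with library totals Smad5 was at 0.072 and neither passed. Smad5 also lost its call with upper-quartile factors (-0.15). Smad1 (log2 fold change -0.16) and the inhibitory Smad6 (0.025) did not pass, and Smad6 was called higher with library totals (0.37). These 4 SMADs were named after their values were seen. The adaptor gene Zfyve9, whose product SARA presents SMAD2 and SMAD3 to the receptor, fell by 0.77 (SE 0.10), and 10.9% of its exonic bases lie under other genes. Its relative Zfyve16 rose by 0.71 (SE 0.10). Tgfb1i1, a focal adhesion protein gene named for its induction by TGF-beta, rose by 0.91 (SE 0.16).

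The next list held 21 regulators of the pathway, most of them inhibitors, and 20 were tested, with 11 higher, 5 lower and a list median of 0.39 on the log2 scale. Tgif2 (0.81) and Stub1 (0.27), named with their values known, are counted as higher. Other genes covered 56.7% and 42.3% of their exonic bases. Pmepa1, a target gene whose product sequesters SMADs, rose from 2.49 ± 0.417 to 7.50 ± 1.52 CPM (log2 fold change 1.59, adjusted p = 7.45e-06). Fkbp1a, which binds the type I receptor, and Bgn, a proteoglycan that binds the ligand, rose by 0.73 and 0.99 on the log2 scale. Ppm1a, a phosphatase of SMAD2 and SMAD3, fell by 0.60 (SE 0.08). The list also holds Rnf111, Usp15 and Usp11, which are known to promote signalling: Usp11 was at 1.41 on the log2 scale and is counted as higher, Rnf111 at -0.36 and counted as lower, and Usp15 did not pass (-0.17). They are named here with their values known. The ubiquitin ligase genes Smurf1, Smurf2 and Wwp1, which act with SMAD7 and were chosen after their values were seen, fell by 0.50, 0.40 and 0.54 with TMM factors and did not pass with library totals.

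The 32 TGF-beta target genes were all tested, and 20 rose and 5 fell, and the list median was 1.53 on the log2 scale. Sphk1, a sphingosine kinase gene, averaged 0.386 ± 0.140 CPM in WT, against 3.31 ± 0.789 CPM with OGT deleted (3.11 on the log2 scale, SE 0.28). The protease inhibitor gene Timp1 went from 0.161 ± 0.0687 to 1.83 ± 0.486 CPM (3.51, SE 0.36). The cytoskeletal genes Vim and Tagln rose by 1.42 and 1.38. Ctgf, a matricellular protein gene widely used as a readout of the pathway, rose by 1.86 (SE 0.32) on the log2 scale and was chosen after its values were seen. The 5 that fell, also named after their values were seen, were the oxidase gene Nox4, the early response genes Klf10, Bhlhe40 and Id2, and the fibronectin gene Fn1. Nox4 averaged 41.8 ± 20.3 CPM in WT, against 7.39 ± 1.81 CPM with OGT deleted (-2.49 on the log2 scale, SE 0.34). Klf10 fell by 1.497, Bhlhe40 by 0.92, Id2 by 0.68 and Fn1 by 0.73 on the log2 scale, and Id2 did not pass with library totals. The groups overlapped for Id2, at 59.1 to 141.0 CPM in WT and 52.3 to 68.2 CPM in OGT-deficient liver. Several genes of this list respond to other signals too, and Ltbp2 and Itgb6 are also counted in the storage and activation list. The list sets no expected direction for its genes, neither for those that rose nor for those that fell, and the activity of the pathway was not tested. Col1a1 and Acta2 of this list, and Dcn of the regulators, are also on the list of stellate cell markers, so these counts are not independent.

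Activins, BMPs, their antagonists and related genes numbered 28, of which 24 were tested, with 11 higher, 6 lower and a list median of 0.42 on the log2 scale. Fst, the secreted antagonist of activins, averaged 4.37 ± 1.65 CPM in WT, against 27.4 ± 7.31 CPM with OGT deleted (2.65 on the log2 scale, SE 0.24). Its relative Fstl1 went from 7.18 ± 2.80 to 33.2 ± 6.50 CPM (2.20, SE 0.24). Bmp5 rose by 0.92 (SE 0.13) and Bmp7 fell by 2.60 (SE 0.31). The list also holds Bmp1, a procollagen protease despite its name (-0.49, counted as lower), the BMP co-receptor gene Hfe2 (0.64, counted as higher) and the BMP target Hamp (-0.46, not passed), named with their values known. Bmp2, a BMP of liver endothelium chosen after its values were seen, fell by 0.93. Over the 6 lists together 120 of 129 genes were tested, and 61 rose and 25 fell (71.7% called), beside the background of 61.1% over all genes.

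**Figure D4:**
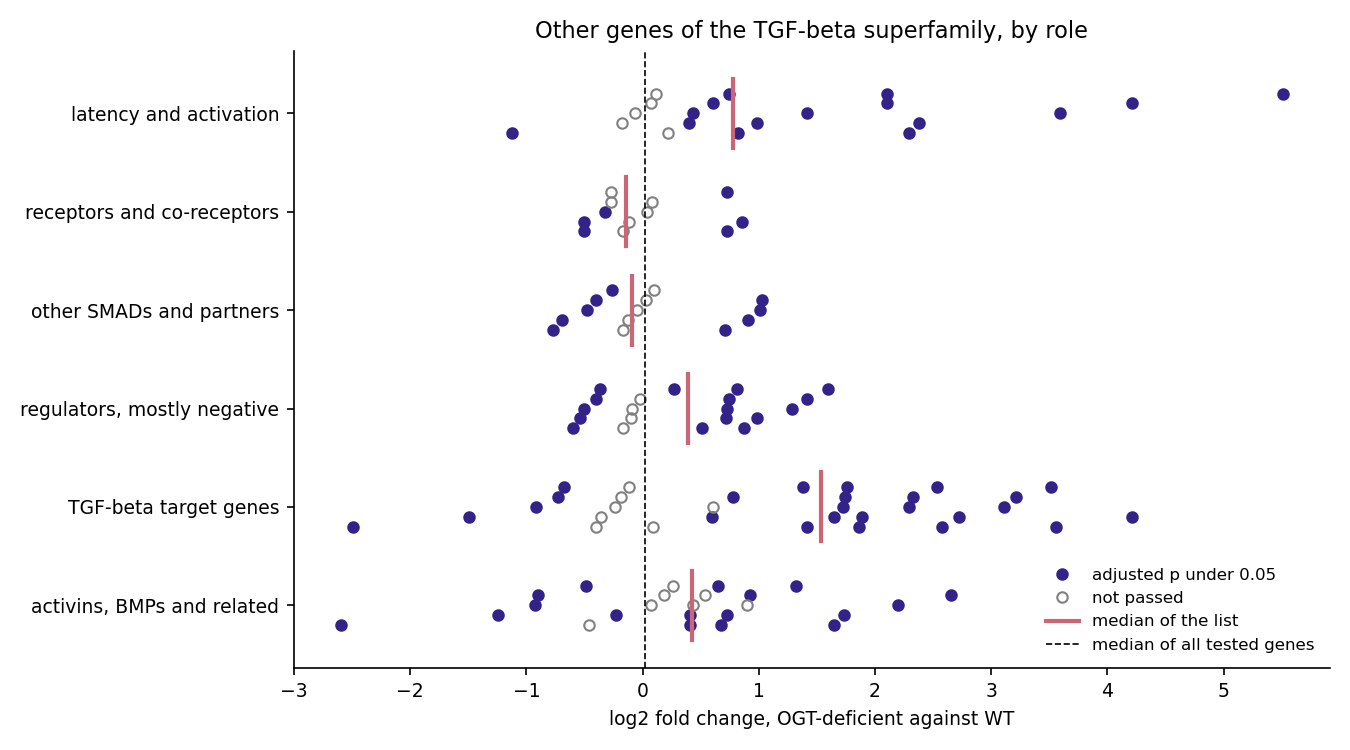
Log2 fold change (x axis) of each tested gene in 6 lists of TGF-beta superfamily genes other than the 10 members, filled where the edgeR adjusted p is under 0.05, with the median of each list (red bar) and of all tested genes (dashed line, 0.02). The target genes have the highest median (1.53) and the receptors and SMAD partners medians below 0.

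Per kilobase of exon, the order of the members in WT liver was led by Tgfbr2 (7.65 ± 0.692 CPM), followed by Tgfbr1 (5.46 ± 0.592), Smad7 (4.42 ± 1.18), Smad3, Smad2 and Tgfb1 (2.83 ± 0.287). Neighbours from Tgfbr1 down to Tgfb1 overlapped in their ranges, so that the order of neighbours is not resolved. Tgfbr1, at 4.80 CPM or more, lay above the highest values of Smad3 (4.38), Smad2 (3.38) and Tgfb1 (3.29). After a gap came Tgfb3 (0.361 ± 0.0994), Ltbp1 (0.281 ± 0.106), Thbs1 (0.182 ± 0.0342) and Tgfb2 (0.0861 ± 0.0428), again with overlap between neighbours. In OGT-deficient liver Tgfbr2 led again (8.85 ± 0.801), Smad3 came next, overlapping Tgfbr1 (4.93 ± 0.599), and Smad7 (3.13 ± 0.457) stood above Smad2 without overlap. Thbs1 (1.32 ± 0.501) stood above Ltbp1 (0.629 ± 0.112), and Tgfb2 was again the lowest (0.398 ± 0.132). The place of Tgfb1 depends on the length used: with the longest transcript in place of all exons it stood at 5.55 CPM per kilobase in WT, between Tgfbr1 and Smad7.

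Markers of several cell types differed between the same libraries. Of 10 stellate cell and myofibroblast markers 9 rose, and their summed level was 210.3 to 338.4 CPM in WT, against 597.4 to 634.1 CPM in OGT-deficient liver. All 8 cholangiocyte markers rose (31.7 to 60.8 CPM summed in WT, 159.7 to 290.02 CPM in OGT-deficient liver), and 7 of 9 markers of monocytes and recruited macrophages rose (78.3 to 104.003 and 134.6 to 197.9 CPM). Of 9 endothelial markers 1 rose and 4 fell, of 8 Kupffer cell markers 2 rose and 1 fell, and of 5 mesothelial markers 2 rose, including Krt19, which is also on the cholangiocyte list. Platelet markers, 4 of 7 tested with 1 higher and 1 lower, summed to 4.68 to 7.41 CPM in WT, against 5.46 to 7.51 CPM in OGT-deficient liver. The 7 T and NK cell markers summed to 4.89 to 6.03 CPM in WT, against 5.26 to 6.22 CPM with OGT deleted. Of 9 tested hepatocyte markers 6 fell. Beside these marker counts, 61.1% of all tested genes were called, 31.6% higher and 29.4% lower. The part of these markers in the changes of the 10 members was not tested, and in whole-liver RNA more or fewer cells of a type and more or less RNA per cell cannot be told apart.

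OGT-deficient 1 had the highest value of its group for 7 of the 10 members, among them Tgfb2, Tgfb3 and Thbs1. It also had the highest summed cholangiocyte level (290.02 CPM) and the lowest summed hepatocyte level (47339 CPM) of its group. The monocyte and mesothelial sums were highest there too. The stellate sum was highest in OGT-deficient 3 (634.1 CPM, against 627.5 CPM in OGT-deficient 1). The Kupffer cell, endothelial, platelet, and T and NK cell sums were highest in OGT-deficient 2. Without OGT-deficient 1 the log2 fold changes were 1.93 for Tgfb2, 2.05 for Tgfb3 and 2.54 for Thbs1. Tgfbr1 was called lower only without this library (-0.25, adjusted p = 0.0498), with adjusted p up to 0.872 over the 17 alternative fits.

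The genes with the profile nearest to each ligand were taken among about 9510 genes averaging at least 5 CPM, by the root mean square difference over the 9 libraries of log2 CPM centred on the WT mean. For Tgfb1 they were Dip2b (0.0564 log2 units), the spliceosomal helicase gene Snrnp200 (0.0600) and the transcriptional repressor gene Rest (0.0715). For Tgfb2 they were the secreted protease gene Htra1 (0.318), the proline synthesis gene Aldh18a1 (0.353) and the membrane protein gene Myof (0.392). For Tgfb3 they were Myof (0.186), the ezrin gene Ezr (0.193) and the netrin receptor gene Unc5b (0.212). The distances were largest for Tgfb2, the ligand with the lowest counts.

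**Figure D5:**
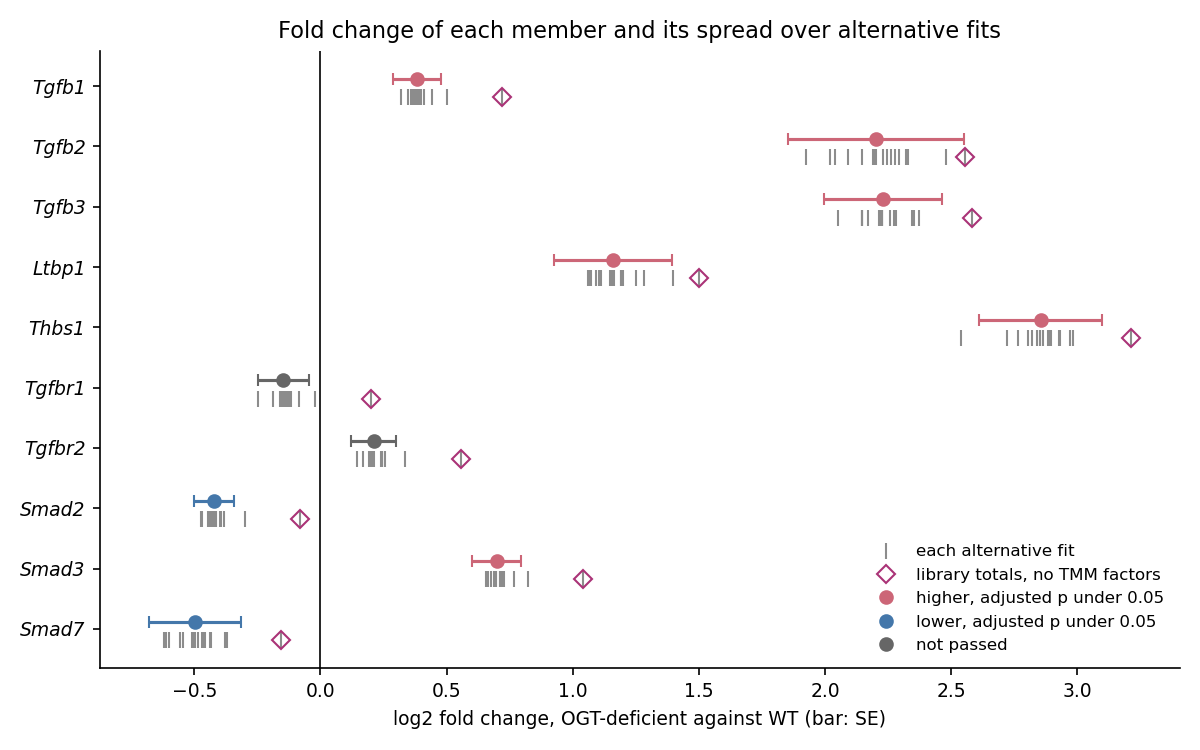
Log2 fold change of each member with its SE (circles and bars, coloured by the edgeR call), with the 17 alternative fits below each (grey ticks) and the fit on library totals without TMM factors marked by a diamond. Thbs1, Tgfb2, Tgfb3, Ltbp1, Smad3 and Tgfb1 stay above 0 in all fits, Smad2 and Smad7 stay below 0, and Tgfbr1 lies at -0.15 with TMM factors and 0.20 with library totals.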

How the data were processed

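RNA-seq counts of 9 mouse liver libraries were analysed. The submitters' processing notes name mm10 (GRCm38), HTSeq 0.9.1 and TopHat2 2.1.0. The authors deposited raw counts per library for 24421 gene symbols, not normalized, with 5 summary lines that stayed out of all totals. The sources used here give neither the annotation release nor the use of strand. No exonic base of a member is covered by another listed gene. Libraries of a group differed by far more than sampling noise (chi-square per degree of freedom at least 23.9 over 16 pairs), so none was a duplicate.

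Counts were fitted in R 4.3.3 with edgeR 4.0.16 (filterByExpr, TMM, glmQLFit and glmQLFTest on group alone, prior count 2 in log2 values), with Benjamini-Hochberg adjustment over 14104 genes and a threshold of 0.05. The script was tested on simulated counts. SE was taken as the log2 fold change divided by the square root of the F statistic. Alternatives were DESeq2 1.42.0 (its size factors, and its test), upper-quartile factors, no filter, CPM 1 in 4 libraries, limma 3.58.1 voom, the replicate number as a block, leaving out each library, and, added after seeing the data, library totals and, for the ligand shares, the longest transcript. Lengths and coordinates (1-based) come from GENCODE M21 (GRCm38), promoter windows from RefSeq (GRCm38.p6).

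The members and lists were chosen with earlier results of these data known. The text names all members, up to 4 genes with the smallest p per pathway list, and the 3 genes nearest to each ligand; all others are marked in the report as picked with their values known. The p-values set the difference between the groups against the spread between these mice.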

Additional observations from a re-analysis of the deposited data

How the results depend on the processing

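The log2 fold changes of Tgfb1, Tgfb2, Tgfb3, Ltbp1, Thbs1 and Smad3 kept direction and call in all 17 alternative fits. Library totals in place of TMM factors moved the all-gene median (log2) from 0.02 to 0.36, and upper-quartile factors moved it to 0.14. The share of higher calls was 51.8% with TMM factors, 62.5% with upper-quartile factors and 78.5% with library totals. With library totals 7372 genes were higher and 2014 lower, in place of 4461 and 4153, and 0 in place of 2 members were lower: Smad2 was at -0.081 and Smad7 at -0.15, against a median of 0.36, while Tgfbr2 was called at 0.56 and Tgfbr1 was at 0.20 without a call. Acvr2a (0.016) and Smad5 (0.072) changed sign there. With upper-quartile factors 1 member was lower, Smad7 was at -0.37 without a call and Tgfbr2 was called at 0.33. With CPM 1 in 4 libraries Tgfbr2 was called at 0.24. Leaving out each library gave 1 to 3 members lower. The log2 fold change of Smad7 was then -0.62 to -0.38, that of Tgfbr2 0.14 to 0.25 and that of Tgfbr1 -0.25 to -0.085. The cause of these changes was not tested beyond the scaling itself.

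Same-numbered OGT-deficient and WT libraries correlated in their deviations at 0.05, -0.10, 0.02 and 0.10 for numbers 1 to 4. Only OGT-deficient 4 correlated best with its own number. Such low correlations cannot show whether same-numbered mice shared a litter or a preparation. With the replicate number as a block, which WT 5 enters without a partner, 7869 genes were called, the same members were called as without it (8 of 10), and the receptor list fell from 6 to 3 called genes, Bambi among those lost (adjusted p = 0.0549). Of 102 counts for the 6 lists, the other 101 stayed within 1.5 times. With a pseudocount of 1 CPM the group difference in the log2 ratio to Tgfb1 was 0.77 for Tgfb2 and 1.23 for Tgfb3. With the longest transcript, the WT levels per kilobase of Tgfb1 (5.55), Tgfbr1 (6.20), Smad2 (3.42) and Ltbp1 (0.449) moved by more than 1 SD. Depth limits Tgfb2 most, at 7 to 38 counts per WT library.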
